A study of Mus musculus with 8 samples.

Results

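The let-7 family guide arms are the mature strands of the let-7 and miR-98 hairpins that enter the silencing complex. The 10 members were chosen by name (mmu-let-7a-5p, mmu-let-7b-5p, mmu-let-7c-5p, mmu-let-7d-5p, mmu-let-7e-5p, mmu-let-7f-5p, mmu-let-7g-5p, mmu-let-7i-5p, mmu-let-7k and mmu-miR-98-5p, written below without the species prefix), and all 10 were found among the 1281 mature miRNAs of the series. Small RNA was sequenced from 3 libraries of calvaria and 5 libraries of MC3T3 E1 sc4 cells. The calvaria (parietal and frontal bones of the skull vault) came from female C57/B6 (in the sample labels C57BL/6) pups aged 2 to 3 days that carried Prrx1-Cre, a recombinase driven by a promoter of limb and skull mesenchyme, and were briefly digested with collagenase and trypsin before RNA was extracted. No floxed allele is named for these mice. The labels do not say whether the 3 libraries are separate animals, and the p-values below speak only of the spread among libraries, which may be technical. MC3T3 E1 sc4 is 1 subclone of a pre-osteoblast line derived from mouse calvaria. Its libraries are titled day 0 (undifferentiated) and days 6, 10, 17 and 24 of culture with ascorbic acid and β-glycerol phosphate, and each holds RNA pooled in equal amounts from 3 cultures. There is thus 1 library per day and no replicate of any day, and the column names of the tables give days 3 lower than the titles, which are followed here. Library totals ran from 1183011 to 2023036 counts in calvaria and from 2742368 to 4031962 counts in MC3T3 cells.

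let-7 miRNAs repress transcripts that carry matches to their shared seed (bases 2 to 8 of the mature strand), among them Hmga2, Lin28 and Ras family transcripts. They are scarce in embryonic stem cells, where the RNA-binding protein LIN28 blocks the processing of let-7 precursors, and they accumulate as cells differentiate. Because many separate loci encode nearly the same mature strand, the family can be described by its total and by the share that each member takes.

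The mature sequences are shown because the members differ from each other at very few bases, which bears on every value below. They are taken from RefSeq (GRCm38.p6), where all 10 members were matched, and are written 5′ to 3′ with the seed in capitals.
let-7a-5p: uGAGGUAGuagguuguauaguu
let-7b-5p: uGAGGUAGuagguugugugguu
let-7c-5p: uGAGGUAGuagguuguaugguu
let-7d-5p: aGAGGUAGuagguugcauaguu
let-7e-5p: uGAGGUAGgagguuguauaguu
let-7f-5p: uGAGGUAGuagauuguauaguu
let-7g-5p: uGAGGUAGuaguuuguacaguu
let-7i-5p: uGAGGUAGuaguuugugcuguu
let-7k: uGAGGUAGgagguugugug
miR-98-5p: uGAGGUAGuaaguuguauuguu

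The seed was identical in all 10. The 9 members of 22 bases had the same base at 14 of 22 positions, and of their 36 pairs 4 differed at 1 base and 10 at 2 bases. Counted from 1 at the 5′ end and read from let-7a-5p, let-7c-5p carries A19G, let-7e-5p U9G and let-7f-5p G12A. Others carry several changes, A17G and A19G in let-7b-5p, U1A and U16C in let-7d-5p, G12U and U18C in let-7g-5p, and G11A and A19U in miR-98-5p. let-7i-5p carries the most changes, G12U, A17G, U18C and A19U. let-7k, listed with 19 bases, carries U9G, A17G and A19G.

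Reads that could stem from several of these strands came divided in the deposited table, as its fractional values show. Of the 104 raw values of the members' entries only 6 were whole numbers (within 0.005), against 82.4% of the nonzero values of all miRNAs with a single entry. The entries of let-7a-5p at its 2 hairpins split 50.03% to 50.12% against 49.88% to 49.97% in all 8 libraries, and those of let-7c-5p and let-7f-5p were similarly even (at most 51.25% at 1 hairpin). Which hairpin made a let-7a, let-7c or let-7f guide strand can therefore not be read from these counts. No source used here says how reads were shared between members 1 base apart. Values of let-7a-5p, let-7b-5p, let-7c-5p, let-7e-5p and let-7f-5p are uncertain to that extent. So are those of let-7k, 1 base from let-7b-5p over its 19 bases. The single entries of let-7d-5p, let-7g-5p, let-7i-5p and miR-98-5p held fractional values too, so they are not free of divided reads. let-7g-5p, for example, had 56627.36 counts at day 0 and let-7i-5p 197924.83 at day 6.

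The hairpins lie at separate loci of GRCm38. Mirlet7a-1, Mirlet7f-1 and Mirlet7d sit within 2261 bases on chromosome 13 (48536012 to 48538272, minus strand), inside exons of the lincRNA 6720427I07Rik. Mirlet7c-2 (chromosome 15, 85706603 to 85706697) and Mirlet7b (85707319 to 85707403) lie on the plus strand in an exon of Lncppara, spanning 801 bases. Mirlet7c-1 (chromosome 16, 77599657 to 77599750) shares an intron of Mir99ahg with Mir99a. Mirlet7a-2 (chromosome 9, 41536716 to 41536811) lies in an intron of 3110039I08Rik near Mir100, and Mirlet7e (chromosome 17, 17830352 to 17830444) in an intron of Spaca6. Mirlet7f-2 (chromosome X, 151912346 to 151912428) and Mir98 (151913214 to 151913321) share an intron of Huwe1. Mirlet7g (chromosome 9, 106178840 to 106178927) is intronic in Wdr82, Mirlet7i (chromosome 10, 122985640 to 122985724, minus strand) overlaps an exon of D630033A02Rik, and Mir7k (chromosome 5, 147283189 to 147283298) lies outside annotated genes on its strand.

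The family's part of all miRNA counts overlapped between bone and the cell line. It held 21.14%, 21.93% and 17.65% of counts in the 3 calvaria libraries, against 13.49%, 18.69%, 19.71%, 22.25% and 21.97% in MC3T3 cells at days 0, 6, 10, 17 and 24. The calvaria libraries lay inside the MC3T3 range, and day 0 was the lowest of all 8. The day 0 library also had 45.55% of its counts in miR-21a-5p, a miRNA abundant in many cultured cells, against 11.23% to 20.14% at the later days and 5.41% to 9.74% in calvaria. Counted against all miRNAs other than miR-21a-5p, the family held 22.76%, 23.18% and 19.55% in calvaria and 24.78%, 23.40%, 24.29%, 25.07% and 25.25% in MC3T3 cells over the 5 days. On that scale day 0 lay within the range of the later days, and all 3 calvaria libraries lay below the 5 MC3T3 libraries.

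**Figure D1:**
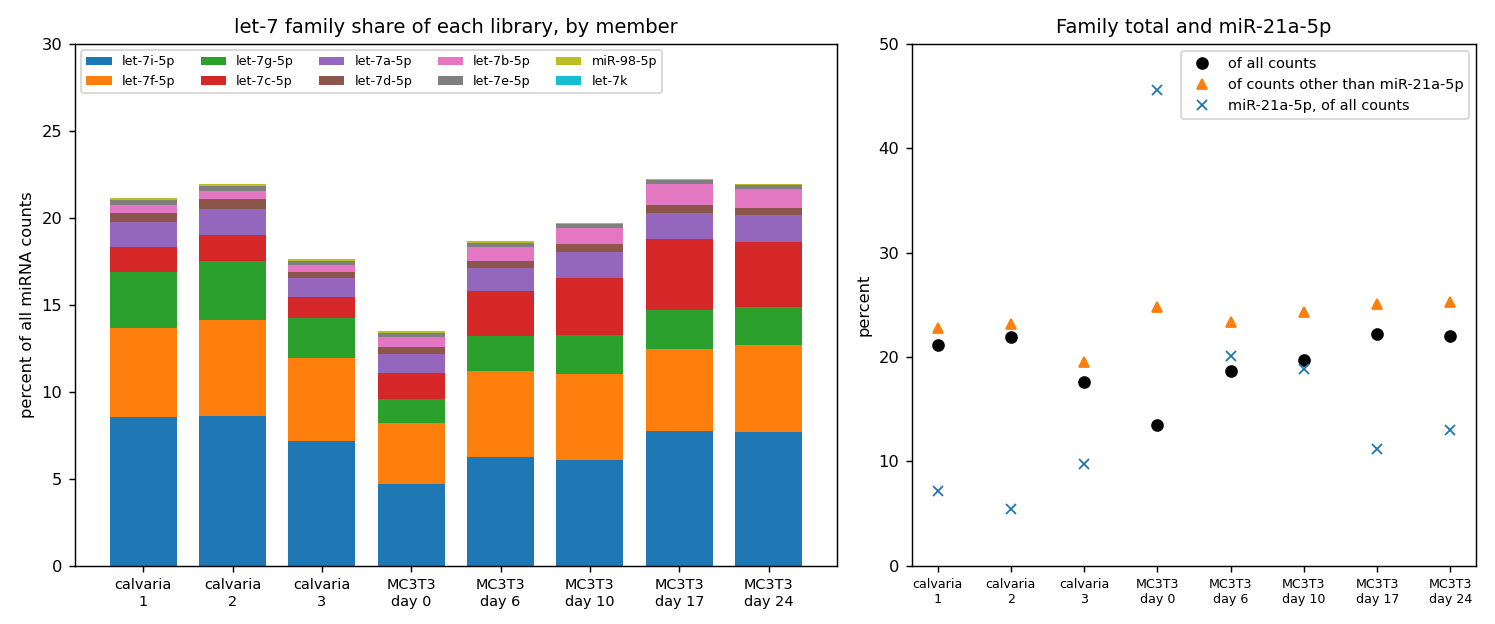
Left, the share of all miRNA counts (percent) that each let-7 guide arm took in each of the 8 libraries, as stacked bars. Right, the family's share of all counts (circles) and of counts other than miR-21a-5p (triangles), with the share of miR-21a-5p (crosses): the low day 0 circle, 13.49%, stands beside a miR-21a-5p share of 45.55%, and the day 0 triangle is at 24.78%.

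By level the order was led by the same pair in both materials. let-7i-5p was the most abundant member in each library, with 85610, 85930 and 71760 RPM (reads scaled to the library's total of miRNA counts) in calvaria and 46800, 62720, 60830, 77520 and 77060 RPM in MC3T3 cells from day 0 to day 24. The last calvaria library lay inside the MC3T3 range and the first 2 above it. By mean RPM let-7i-5p ranked 1 of all miRNAs in calvaria and 3 in MC3T3 cells. In the single calvaria libraries it ranked 2, 2 and 3. let-7f-5p came next with 50830, 55620 and 47880 RPM in calvaria, against 35040, 49190, 49440, 46870 and 49950 RPM in MC3T3 cells. At the low end, miR-98-5p had 1284, 1066 and 1314 RPM in calvaria and 735.6 to 1007 RPM in MC3T3 cells. let-7k was near absent, with 3.5 to 6.25 counts per library in calvaria and 6 to 14.5 in MC3T3 cells. In calvaria let-7g-5p followed let-7f-5p, then came let-7c-5p and let-7a-5p, whose ranges overlapped, then let-7d-5p and let-7b-5p, whose ranges also overlapped, and then let-7e-5p. In MC3T3 cells let-7c-5p followed let-7f-5p, ahead of let-7g-5p, let-7a-5p and let-7b-5p in all 5 libraries, although the ranges of these neighbours over the days overlapped.

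In the make-up of the family, which needs no scaling between libraries, the shares of 4 of 10 members did not overlap between bone and the cell line. Ranges without overlap were common in these data, at 61.4% of all miRNAs tested when counted in RPM, so the count of 4 is no result about the family. let-7c-5p made up 6.77%, 6.97% and 6.88% of the family's counts in calvaria, against 11.18%, 13.80%, 16.60%, 18.23% and 16.89% in MC3T3 cells over the 5 days. let-7b-5p made up 2.19%, 2.20% and 2.12% in calvaria, against 4.38%, 4.37%, 4.78%, 5.26% and 4.97% in MC3T3 cells. Every calvaria library was below every MC3T3 library for both. In the other direction let-7g-5p held 15.38%, 15.28% and 12.88% of the family in calvaria and 10.03% to 11.44% in MC3T3 cells. let-7i-5p held 40.49%, 39.18% and 40.66% in calvaria and 30.87% to 35.08% in MC3T3 cells. The other 6 members overlapped between the materials. let-7f-5p, for example, had 25.51% ± 1.55 in calvaria (SD, n = 3) and 21.06% to 26.33% in MC3T3 cells. Together let-7b-5p and let-7c-5p held 9.04% ± 0.11 of the family in calvaria, against 15.56% to 23.49% in MC3T3 cells. The same difference stands in ratios of counts, where let-7g-5p had 2.27, 2.19 and 1.87 counts per count of let-7c-5p in calvaria and 0.561 to 0.931 in MC3T3 cells. Shares within a family are tied to each other, since a lower share of let-7c-5p raises the rest, and they carry no test here.

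**Figure D2:**
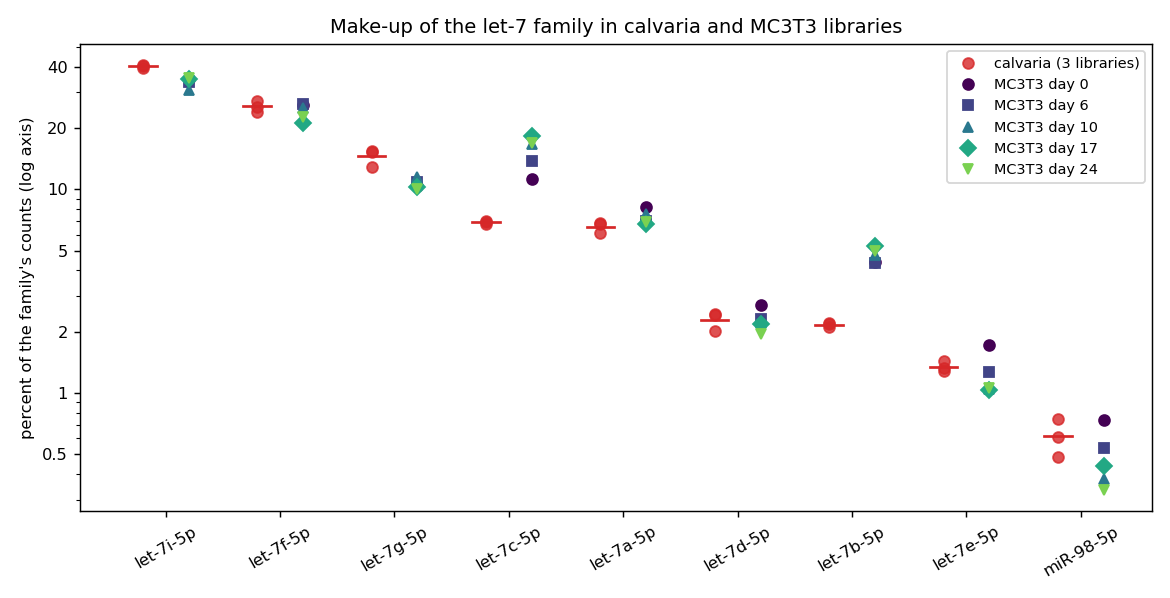
Share of the family's counts (percent, log axis) taken by each let-7 guide arm other than let-7k, with the 3 calvaria libraries and their mean as a line in red, and the 5 MC3T3 days by symbol. let-7c-5p and let-7b-5p lie lower in all calvaria libraries than on any MC3T3 day, and let-7i-5p and let-7g-5p lie higher.

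How each level differed between tissue and cell line was asked in 1 fit over all miRNAs, the 3 calvaria libraries against all 5 MC3T3 libraries (edgeR quasi-likelihood test with TMM scaling and Benjamini-Hochberg adjustment, threshold 0.05). Of the 10 members 9 passed the filter of 10 counts in at least 3 libraries, and let-7k did not. let-7b-5p and let-7c-5p were lower in calvaria, none was higher and 7 did not pass. Among all 471 miRNAs tested the same rule called 35.5% higher and 28.7% lower, so a call was made for 64.1% of miRNAs and for 2 of 9 members. At an unadjusted p under 0.05 it was 67.1% of miRNAs and the same 2 members. The median log2 difference was -0.04 over the 9 members and 0.06 over all miRNAs tested.

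let-7b-5p had 4628, 4825 and 3734 RPM in calvaria, against 5906, 8171, 9410, 11690 and 10920 RPM in MC3T3 cells from day 0 to day 24. No calvaria library reached the lowest MC3T3 library. Its log2 difference, calvaria minus MC3T3, was -1.26 ± 0.24 (SE), or 0.417 of the MC3T3 level (edgeR quasi-likelihood, adjusted p = 0.000766). let-7c-5p had 14310, 15280 and 12150 RPM in calvaria, against 15080, 25780, 32710, 40570 and 37110 RPM in MC3T3 cells. In RPM the day 0 library lay among the calvaria libraries and the 4 later days were all higher; after TMM scaling, day 0 was at 21070 and the highest calvaria library at 14050 on the scaled RPM. Its log2 difference was -1.30 ± 0.27 (0.406 of the MC3T3 level, adjusted p = 0.00173). The size depended on the days it was set against, with -1.69 for let-7c-5p and -1.58 for let-7b-5p against days 17 and 24 alone and -0.77 and -0.93 against days 0 and 6 alone. Both passed the threshold in all of these.

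let-7g-5p had 32520, 33510 and 22730 RPM in calvaria, against 14040, 20270, 22550, 22740 and 22030 RPM in MC3T3 cells. The first 2 calvaria libraries stood above all MC3T3 libraries and the last one beside the highest of them. Its log2 difference of 0.35 ± 0.20 did not pass (adjusted p = 0.148), and without that last library, calvaria 3, it was 0.52 and passed (0.0391). let-7i-5p, in spite of its larger share of the family, had a log2 difference of 0.12 ± 0.20 (adjusted p = 0.605).

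The remaining members did not pass either. let-7f-5p had a log2 difference of -0.04 ± 0.17, let-7d-5p of -0.09 ± 0.21 and let-7e-5p of 0.02 ± 0.21. let-7a-5p was at -0.26 ± 0.20 and miR-98-5p at 0.22 ± 0.24. In RPM let-7e-5p (2813, 2798 and 2531 in calvaria, 2072 to 2374 in MC3T3 cells) and miR-98-5p did not overlap between the materials, nor did let-7b-5p. Of all miRNAs tested 61.4% had ranges that did not overlap, 39.5% higher and 21.9% lower in calvaria. Differences of this size move with the scaling: the median over all miRNAs, 0.06 under TMM, became 0.23 under the size factors of DESeq2, 0.25 under library totals and -0.37 under upper quartile factors. With upper quartile factors let-7a-5p, let-7d-5p and let-7f-5p were called lower as well and let-7e-5p, let-7g-5p, let-7i-5p and miR-98-5p changed sign.

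**Figure D3:**
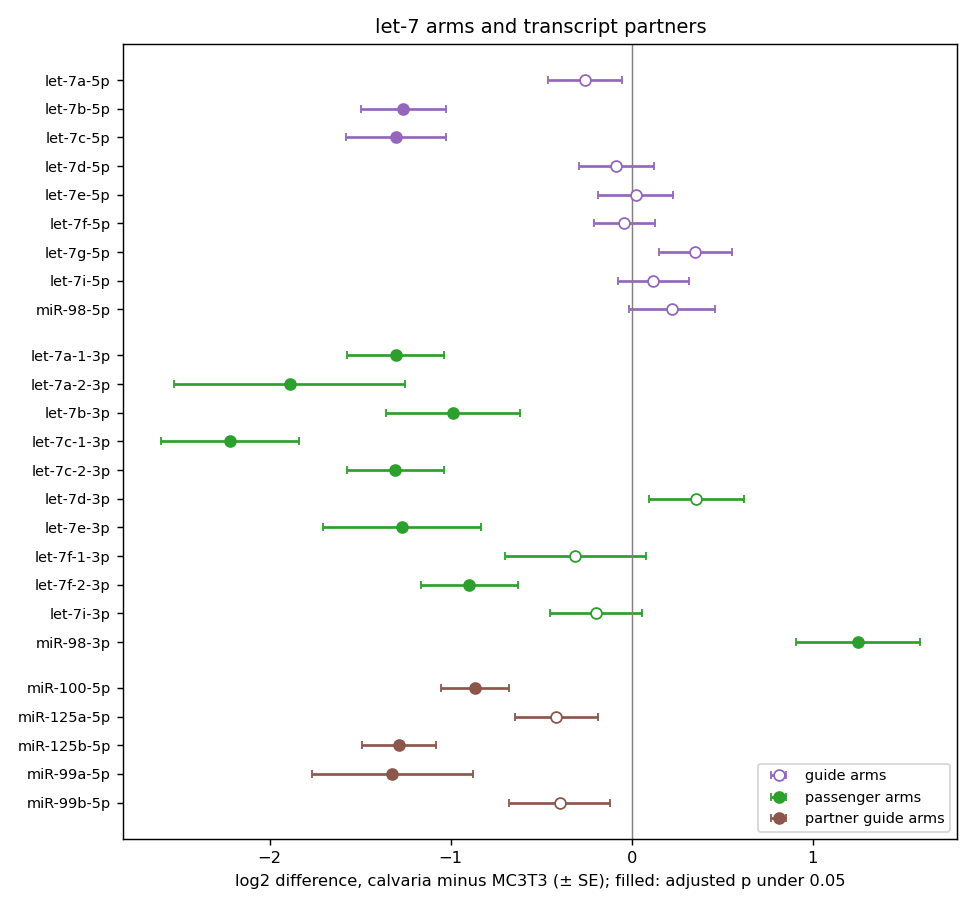
Log2 difference, calvaria minus MC3T3 (± SE from the edgeR fit with TMM scaling, 3 against 5 libraries), for the tested guide arms, passenger arms and transcript partners of the let-7 loci, with filled symbols for an adjusted p under 0.05. Of the guide arms let-7b-5p and let-7c-5p lie apart at -1.26 and -1.30, and most passenger arms lie to the left.

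The passenger arms, the strands opposite the guides that are mostly degraded, bear on the loci because several of them differ between hairpins whose guides are identical. Of the 12 passenger arms 11 were tested, of which 7 were lower in calvaria, 1 was higher and 3 did not pass (median log2 difference -0.99), beside the 28.7% of all miRNAs called lower. Counted among the 7 are both let-7a-1-3p and let-7c-2-3p, which share 1 sequence and amount to 1 signal. let-7g-3p, with 0 to 9 counts per library, was not tested. The clearest was let-7c-1-3p, from the chromosome 16 hairpin, with 9.30, 10.9 and 11.2 RPM in calvaria, against 19.7, 72.9, 63.5, 32.9 and 33.2 RPM in MC3T3 cells. All calvaria libraries were below all MC3T3 libraries, and the log2 difference was -2.22 ± 0.38 (edgeR quasi-likelihood, adjusted p = 0.00041). let-7b-3p had 31.3, 45.5 and 26.1 RPM in calvaria, against 75.7, 83.0, 43.8, 45.2 and 43.4 RPM in MC3T3 cells, with 1 calvaria library inside the MC3T3 range. Its log2 difference of -0.99 ± 0.37 passed narrowly (adjusted p = 0.0361) and was past the threshold in 10 of 20 alternative settings. The passenger arm of the other let-7c hairpin cannot be told from that of let-7a-1, since RefSeq lists the same sequence for both:
let-7a-1-3p: cuauacaaucuacugucuuucc
let-7c-2-3p: cuauacaaucuacugucuuucc

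The counts of these 2 entries differed by at most 3 in any library, so they amount to 1 signal. let-7a-1-3p had 135.2, 128.0 and 93.05 RPM in calvaria, against 272.3, 317.8, 206.5, 248.9 and 215.2 RPM in MC3T3 cells, with no overlap. It was called lower in calvaria (log2 -1.30 ± 0.27, edgeR quasi-likelihood, adjusted p = 0.00145). let-7f-2-3p, from the Huwe1 intron, had 25.4, 27.7 and 17.1 RPM in calvaria, against 32.3 to 46.4 RPM in MC3T3 cells (log2 -0.90 ± 0.27, adjusted p = 0.0133). let-7e-3p had 16.1, 8.90 and 13.4 RPM in calvaria, against 19.0 to 39.4 RPM in MC3T3 cells (log2 -1.27 ± 0.44). Both lay below all MC3T3 libraries, and the scarce let-7a-2-3p was also called lower, on 2 counts in each calvaria library and 9 to 30.5 in MC3T3 libraries (log2 -1.89 ± 0.64). With 1 calvaria library fewer some of these calls were lost while the direction stayed. let-7f-2-3p was at log2 -0.91 without calvaria 1 (adjusted p = 0.0609) and at -0.69 with library totals (0.0602). let-7e-3p was at -1.08 without calvaria 2 (0.126) and -1.29 without calvaria 3 (0.0703). let-7a-2-3p was at -2.02 to -1.68 and lost whichever of the 3 was left out (0.0586 to 0.114). The guides let-7a-5p, let-7e-5p and let-7f-5p did not pass. The passenger arm's part of the let-7e counts was 0.568%, 0.317% and 0.527% in calvaria, against 0.822% to 1.66% in MC3T3 cells. For let-7c all calvaria libraries, at 0.9997%, 0.901% and 0.851%, lay within the 0.668% to 1.90% of MC3T3 cells. The let-7c share includes the let-7c-2-3p entry, which cannot be told from let-7a-1-3p.

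The passenger arms of miR-98 and let-7d were on the other side. miR-98-3p had 15.2, 10.9 and 17.9 RPM in calvaria, against 6.20, 6.97, 3.22, 5.84 and 3.65 RPM in MC3T3 cells. It was the one passenger arm called higher (log2 1.25 ± 0.34, edgeR quasi-likelihood, adjusted p = 0.00825), with 18 to 24 counts per calvaria library and 10 to 25 per MC3T3 library. The call was lost with upper quartile factors (0.0616) and against days 0 and 6 alone (0.0892). let-7d-3p, the most abundant passenger arm, had 656.8, 568.5 and 568.0 RPM in calvaria, against 308.5 to 522.9 RPM in MC3T3 cells. Its ranges did not overlap, but the log2 difference of 0.36 ± 0.26 did not pass. let-7d was also the hairpin with the largest passenger share, 11.4%, 9.62% and 13.7% in calvaria and 6.70% to 11.4% in MC3T3 cells. let-7f-1-3p, from the same chromosome 13 locus, did not pass either (log2 -0.31 ± 0.39), nor did let-7i-3p (-0.20 ± 0.25).

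Some let-7 hairpins share a transcript with miR-99, miR-100 and miR-125 hairpins, which gives a further readout of the loci. Of these 5 partner guide arms 3 were lower in calvaria and 2 did not pass. Of all miRNAs tested 28.7% were called lower and 64.1% in either direction, so this count is no result about the loci. At the chromosome 16 locus of let-7c-1, miR-99a-5p had 25990, 26620 and 21650 RPM in calvaria, against 13160, 42320, 59530, 82000 and 80010 RPM in MC3T3 cells. Day 0 was below all calvaria libraries and the later days were all above them (log2 -1.32 ± 0.45, edgeR quasi-likelihood, adjusted p = 0.0232). That call was lost when any 1 of the 3 calvaria libraries was left out (log2 -1.37 to -1.22, adjusted p 0.0503 to 0.0982), with library totals (0.0517) or limma (0.17), and against days 0 and 6 alone (log2 -0.28, 0.491). Per count of let-7c-5p, miR-99a-5p had 1.82, 1.74 and 1.78 counts in calvaria, against 0.873, 1.64, 1.82, 2.02 and 2.16 in MC3T3 cells. At the let-7a-2 locus miR-100-5p had 23960, 23470 and 25260 RPM in calvaria, against 31620 to 44540 RPM in MC3T3 cells (log2 -0.86 ± 0.19, adjusted p = 0.00216). miR-125b-5p, made from both of these loci, had 6245, 5737 and 7273 RPM in calvaria, against 10840 to 20020 RPM in MC3T3 cells (log2 -1.29 ± 0.21, 0.00025). Both were below all MC3T3 libraries. At the let-7e locus miR-99b-5p (log2 -0.40 ± 0.28) and miR-125a-5p (-0.42 ± 0.23) did not pass.

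Over the days of osteogenic culture no member passed the linear day trend in the 5 MC3T3 libraries (edgeR quasi-likelihood test over 391 miRNAs, Benjamini-Hochberg). All 10 members were tested, with adjusted p from 0.117 to 0.909. Of all miRNAs tested 2.3% passed that test, 1.02% higher and 1.28% lower, and 23.3% had an unadjusted p under 0.05, which among the members let-7c-5p alone had (0.0138). Its fitted log2 change over 24 days was 0.98 ± 0.31 (SE, adjusted p = 0.117). On a log2(day + 1) scale its change was 0.92 with an adjusted p of 0.0429, and without day 0 and miR-21a-5p it was 0.94 (0.0442). In RPM let-7c-5p at day 24 stood at 2.46 times day 0 (95% interval 2.44 to 2.49, counting error only). It and let-7k were the members above 2 times day 0, as were 27.3% of all miRNAs tested, and none was under 0.5 times day 0, as were 10.8%. Against counts other than miR-21a-5p let-7c-5p stood at 1.54 times day 0. Its share of the family was 18.23% at day 17 and 16.89% at day 24, against 11.18% at day 0.

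Against counts other than miR-21a-5p, several members stood near their day 0 level at day 24. The ratio was 1.03 for let-7i-5p, 0.982 for let-7g-5p, 0.892 for let-7f-5p, 0.862 for let-7a-5p and 1.16 for let-7b-5p. It was 0.735 for let-7d-5p, 0.626 for let-7e-5p and 0.462 for miR-98-5p. In RPM let-7e-5p was level (2332 at both ends) and miR-98-5p was at 0.737 times day 0, so the size of these steps moved with the denominator. The fitted log2 change was -0.32 ± 0.36 for let-7e-5p and -0.68 ± 0.39 for miR-98-5p. Without day 0 they were 0.30 and -0.11. For let-7k the RPM ratio of 3.25 rested on 6 and 13.25 counts and had an interval of 1.13 to 10.2. The median log2 change over 24 days was 0.19 for the members, against -0.12 for all miRNAs tested. Of the 11 passenger arms tested with day, none passed. The changes were negative in 10 of them (median -0.99) and in 218 of all 391 miRNAs tested. Among the 10 were let-7b-3p at -1.26 ± 0.42 and let-7f-1-3p at -1.33 ± 0.49. The 10 also hold both entries of the single signal shared by let-7a-1-3p and let-7c-2-3p. The passenger share of let-7b counts was 0.385% and 0.396% at days 17 and 24, against 1.27% at day 0. The partner miR-99a-5p had a log2 change of 2.12 ± 0.44 and missed the threshold (adjusted p = 0.0502), which it passed in 10 of 16 alternative settings.

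**Figure D4:**
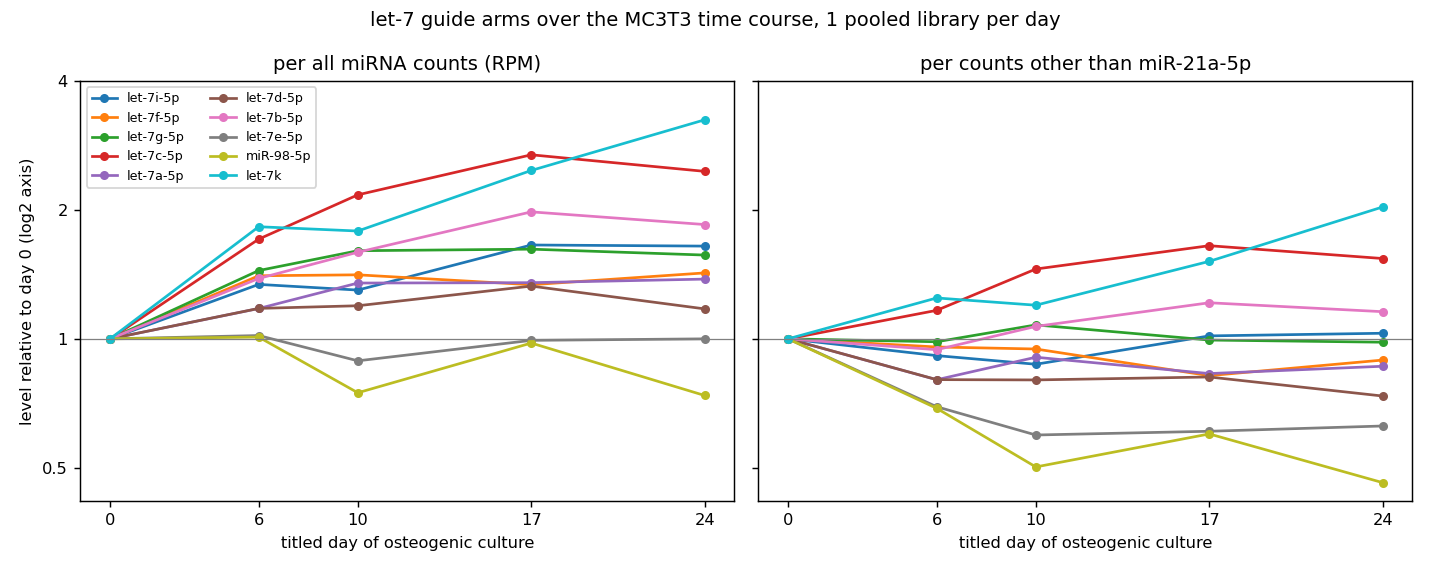
Level of each let-7 guide arm relative to day 0 (log2 axis) over the titled days of MC3T3 culture, 1 pooled library per day, in RPM at left and against counts other than miR-21a-5p at right. let-7c-5p reached 2.46 times day 0 at day 24 on the left and 1.54 times on the right. At right let-7a-5p, let-7b-5p, let-7f-5p, let-7g-5p and let-7i-5p were at 0.862 to 1.16. let-7d-5p, let-7e-5p and miR-98-5p were at 0.735, 0.626 and 0.462. let-7k rests on 6 to 14.5 counts per library.

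A further pair of entries lies close to the family without being members. let-7j carries the let-7i-5p sequence with the seed change G8U and extra bases at the 3′ end.
let-7i-5p: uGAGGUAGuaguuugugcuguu
let-7j: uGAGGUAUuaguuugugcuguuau

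let-7j had 4035, 3396 and 3915 RPM in calvaria, against 1227, 2330, 2425, 2172 and 2221 RPM in MC3T3 cells. All calvaria libraries were above all MC3T3 libraries (log2 0.69 ± 0.19, edgeR quasi-likelihood, adjusted p = 0.0084), although with upper quartile factors the log2 difference was 0.24 (0.243) and with no filter on low counts 0.55 (0.0584). Per 100 counts of let-7i-5p there were 4.71, 3.95 and 5.46 counts of let-7j in calvaria and 2.62 to 3.99 in MC3T3 cells, which overlap. Mir7j is at chromosome 3, 140028249 to 140028370. How far reads of let-7i-5p entered the let-7j entry was not tested. miR-1961 was the only other mature miRNA of the RefSeq table with the let-7 seed, and it had 1 and 1.5 counts at days 0 and 6 and 0 in the other 6 libraries.

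The miRNAs whose course was most like that of the family total were taken by the mean absolute difference of profiles, log2(RPM + 1) centred over the 8 libraries, among 462 candidates. They were miR-191-5p (0.10 log2), miR-152-5p (0.10), miR-574-5p (0.12), miR-26a-5p (0.13) and miR-700-3p (0.14). miR-191-5p, for example, had 2756, 2741 and 2099 RPM in calvaria, against 1962, 2752, 2861, 3242 and 2925 RPM in MC3T3 cells. Like the family it was lowest at day 0 and, within calvaria, lowest in calvaria 3. These are likenesses over 2 materials in which every RPM shares the library total.

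Calvaria is a tissue of several cell types, and in such bulk samples fewer cells of a type and less RNA per cell cannot be told apart. Markers of the skeletal mesenchyme summed to 131900 to 145900 RPM in calvaria and 130000 to 187900 RPM in MC3T3 cells, with all 5 at 10 counts or more in both. These sums overlapped, but the members went different ways. miR-143-3p had 50330 to 64100 RPM in calvaria and 87470 to 117500 RPM in MC3T3 cells. For miR-145a-5p it was 986.6 to 1175 and 1306 to 2897 RPM. miR-199a-3p was higher in calvaria, at 49960 to 55990 and 19980 to 41860 RPM, and miR-199a-5p and miR-214-3p overlapped. The 2 endothelial markers (miR-126-3p and miR-126-5p) summed to 9028 to 20320 RPM in calvaria and 6.20 to 19.0 RPM in MC3T3 cells. The 4 cartilage markers summed to 61230 to 111600 RPM in calvaria and 18220 to 28780 RPM in MC3T3 cells. The 7 blood cell markers summed to 307.7 to 454.1 RPM in calvaria and 38.9 to 110.6 RPM in MC3T3 cells. Of the 7, 5 stayed under 10 counts in every MC3T3 library. Most of the MC3T3 sum was miR-486-5p, at 36.5 to 107.1 RPM there and 47.8 to 59.6 RPM in calvaria. Unlike the list's sum, miR-486-5p was called lower in calvaria (log2 -0.80 ± 0.27). The sums of the 5 striated muscle markers overlapped (283.2 to 642.4 against 212.6 to 574.4 RPM), but the members differed. miR-1a-3p had 202.2 to 381.1 RPM in calvaria and 16.1 to 88.1 RPM in MC3T3 cells. For miR-133a-3p it was 28.8 to 50.4 and 0.992 to 5.47 RPM, and miR-133b-3p was also higher in all calvaria libraries. miR-206-3p had 45.0 to 203.2 and 104.3 to 556.3 RPM, and miR-499-5p 2.23 to 3.38 and 0.992 to 19.8 RPM. The 6 epithelial markers summed to 73.2 to 78.6 RPM in calvaria and 3.22 to 12.4 RPM in MC3T3 cells. Among them miR-205-5p overlapped, at 0.845 to 1.98 RPM in calvaria and 0.496 to 3.49 RPM in MC3T3 cells. The 3 nervous system markers summed to 599.3 to 682.1 RPM in calvaria and 325.6 to 460.1 RPM in MC3T3 cells. Most of both sums was miR-128-3p (533.0 to 608.0 and 271.7 to 445.7 RPM). miR-124-3p was at 0 in all MC3T3 libraries and at 0, 0.994 and 0 RPM in calvaria. Apart from the skeletal mesenchyme and muscle lists, the sums of each list were higher in all calvaria libraries than in any MC3T3 library. Within the tissue, calvaria 3 had the lowest family share of all counts, 17.65%, and the lowest RPM of every member but let-7k and miR-98-5p. That library also had the highest endothelial sum and the lowest cartilage sum. The part of these cell types in the let-7 differences was not tested.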

How the data were processed

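Small RNA from 3 calvaria and 5 MC3T3 samples was sequenced (NEBNext kit, as the protocol labels state). The deposited raw file gives estimated counts for 1418 pairs of mature arm and precursor, fractional where reads were divided. The deposited normalized file gives RPM, which equalled count over library total within 0.0127. The submitters' processing notes name cutadapt 0.9.5, Bowtie 0.12.7 and mm10, with no role or order. The quantifier, the miRBase release and the meaning of the mark "veh" on MC3T3 columns were not given in the sources used. Each MC3T3 column names a day 3 lower than its title, days follow the titles, and all columns were mapped.

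Counts were summed over precursors per mature miRNA and rounded. edgeR 4.0.16 (R 4.3.3, quasi-likelihood, TMM) tested calvaria against MC3T3 (10 counts in at least 3 libraries) and the day trend (10 counts in at least 2 MC3T3 libraries, 3 residual degrees of freedom, slope times 24 days). In the comparison of calvaria the spread of MC3T3 holds its course over time. The fits were tested on simulated data. limma 3.58.1, DESeq2 1.42.0, other scalings and filters and left-out libraries were alternatives. Ratio intervals are exact at 95% and cover counting error only, because no day was replicated. Reads carried no molecular identifiers. Named miRNAs were the members, their passenger arms, same-seed miRNAs, let-7j, 5 transcript partners and the 5 nearest profiles. Members and lists were chosen with earlier results of these data known. Blood and endothelial markers under newer names were matched to older ones in the table.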

Additional observations from a re-analysis of the deposited data

Results flagged for a closer look

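Of 23 sets of the 5 MC3T3 values checked, 4 had an end library whose gap to its neighbour took more than 0.71 of the whole range, a limit that chance passes in about 1 of 20 groups. let-7f-5p was lowest at day 0 with 35040 RPM (0.793 of the range), and let-7g-5p was lowest at day 0 with 14040 RPM (0.716). The same library had the highest share of miR-21a-5p, 45.55% of counts (0.74). let-7e-5p was lowest at day 10 with 2072 RPM (0.798). The part of miR-21a-5p in the day 0 values was not tested beyond the shares and ratios without it given above.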

How the results depend on the processing

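No paired analysis was possible because each MC3T3 day has 1 library and the calvaria numbers only follow accession order. let-7b-5p and let-7c-5p were lower in calvaria in all alternatives, with log2 differences of -1.72 to -0.93 and -1.75 to -0.77. Alternatives without day 0 and miR-21a-5p together were chosen after seeing the data. The day fit has 3 residual degrees of freedom and let-7k under 15 counts in each library, so neither settles small changes.

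In the day trend, calls over all miRNAs (4 higher and 5 lower) became 0 and 0 with library totals and with limma, 19 and 14 with DESeq2's Wald test, and 7 and 10 with no filter on low counts. They became 0 and 1 with at least 100 counts, 8 lower with precursor entries kept apart, 39 and 49 on the log2(day + 1) scale, and 30 and 30 without day 0 and miR-21a-5p. Members called higher were 1, let-7c-5p, in the last 2 settings. Leaving out 1 library gave 0 to 28 higher and 0 to 31 lower calls. Some log2 changes turned sign from the main fit, where let-7d-5p was at -0.07 and let-7e-5p at -0.32. let-7d-5p was at 0.25 and let-7e-5p at 0.0016 with library totals, and at 0.25 and 0.0026 with limma. Without day 0 and miR-21a-5p they were at 0.30 and 0.32. let-7f-5p was at -0.016 with at least 100 counts and -0.0010 on the log2(day + 1) scale, where let-7a-5p was at -0.019. With 1 day left out, let-7a-5p ran from -0.049 to 0.47, let-7d-5p from -0.22 to 0.28, let-7e-5p from -0.74 to 0.30 and let-7f-5p from -0.12 to 0.23, each highest without day 0, where miR-98-5p moved to -0.11.

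Calvaria against MC3T3 gave 81 higher and 75 lower calls with at least 100 counts, against 167 and 135, where fewer miRNAs were tested. Members called higher were 1 in place of 0, let-7g-5p, with DESeq2 size factors, DESeq2's Wald test and miR-21a-5p taken out, and 1, miR-98-5p, without day 0 and miR-21a-5p; leaving out 1 library gave 0 to 1. Members called lower were 5 with upper quartile factors, where let-7e-5p was at -0.43, let-7g-5p -0.11, let-7i-5p -0.33 and miR-98-5p -0.23. let-7d-5p and let-7f-5p turned to 0.078 and 0.13 with DESeq2 size factors (0.078 and 0.13 in the Wald test), 0.12 and 0.16 with library totals, 0.034 and 0.079 with miR-21a-5p taken out, and 0.10 and 0.17 with limma. With no filter let-7e-5p was at -0.11 and let-7i-5p at -0.011. let-7f-5p was at 0.0099 with at least 100 counts and 0.020 and 0.013 for its 2 entries. Against days 17 and 24 let-7i-5p was at -0.15, and against days 0 and 6 let-7e-5p was at -0.096, let-7f-5p 0.041 and miR-98-5p -0.021. With 1 library left out, let-7d-5p ran from -0.21 to 0.088, let-7e-5p from -0.031 to 0.15 and let-7f-5p from -0.11 to 0.024. Beyond the upper quartile factors, whose shift of all miRNAs is given above, the cause was not tested.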
